A study of Mus musculus with 6 samples.

Results

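Cluster 9 regions at gene ends are stretches of accessible chromatin in mouse embryonic stem cells that the authors' table assigns to its cluster 9 and whose midpoint lies within 1 kb of either annotated limit of a protein-coding gene. There were 1334 of them, out of 18283 regions of cluster 9 and 69689 regions of all clusters, and 1382 protein-coding genes had one at an end. They were chosen by the cluster that the authors gave each region in their ACC-seq clustering, a measured value, and by position. Neither the cluster nor the place at a gene limit is therefore a result here. The last regions inside the 1 kb limit lay 994.5 bp from Ciapin1 and 998.5 bp from Hoxc11, and the first outside it lay 1002.5 bp from Rbfox2 and 1003.5 bp from Cxxc5.

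The regions come from ACC-seq, in which the transposase Tn5 cuts accessible DNA and leaves sequencing adapters, applied to R1 embryonic stem cells of wild-type (WT) genotype, grown on embryonic fibroblast feeders in serum, LIF and 2i medium. Fresh cells (2 libraries) were not fixed and their nuclei were tagmented at 37 °C. Fix cells (2 libraries) were fixed in 1% formaldehyde for 10 min and tagmented at 55 °C. Cells labelled Fix, 1,6-Hex (2 libraries) were fixed and tagmented in that way, with 10% 1,6-hexanediol, an alcohol that disperses many condensates, present for 30 s before fixation and during it. Feeder cells had been depleted by replating, and all 6 libraries come from this 1 line. The table analysed here gives a position and a cluster name for each region, with no value per library. Accessibility could therefore not be compared between Fresh, Fix and Fix, 1,6-Hex, and the sources used here do not give the accessibility pattern that defines cluster 9. Sequencing depth is unknown, and the comparisons between clusters below are descriptions with no test. Intervals are exact binomial 95% intervals, which cover counting error only, since neighbouring regions are not independent replicates.

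Promoters of mammalian genes fall along a range of CpG content. Those rich in CpG dinucleotides are typical of housekeeping genes and of developmental regulators, which in embryonic stem cells are often held by Polycomb complexes, and they tend to be open in most cell types. Promoters poor in CpG are typical of genes used by single tissues, such as keratins or immune signals. Open chromatin at the far end of a gene, where transcription stops, is less common and can mark enhancers or boundary elements.

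The promoters of 10 genes that lie wholly inside a cluster 9 region show how wide the range of sequences was. Each is a 300-base RefSeq promoter on the GRCm38.p6 build (the mm10 assembly), read 5′ to 3′ along the gene, with CG dinucleotides in capitals. It runs from 250 bases before the start given for that promoter to 50 bases from it on. That start can lie up to 1 kb from the annotated gene limit. At Jag2 and Grm6 the limit at the start (112929812 and 50850369) lay outside the 300 bases. The first 8 named here carry the widest such regions among genes of the transcription factor, signalling, matrix and pluripotency lists. They are Jag2 (a Notch ligand, chr12:112929446-112929745, minus strand), Hoxa13 (a homeobox gene of limb and hindgut, chr6:52260831-52261130, minus strand), Lhx1 (a LIM homeobox factor of head and kidney, chr11:84525485-84525784, minus strand), Twist1 (a basic helix-loop-helix factor of mesenchyme, chr12:33957421-33957720, plus strand), Twist2 (its close relative, chr1:91801211-91801510, plus strand), Wnt10b (a Wnt ligand, chr15:98778101-98778400, minus strand), Hoxd8 (chr2:74704365-74704664, plus strand) and Notch4 (a Notch receptor of blood vessels, chr17:34564045-34564344, plus strand). Col1a2 (a chain of type I collagen, chr6:4505368-4505667, plus strand) and Grm6 (a glutamate receptor of the retina, chr11:50850435-50850734, plus strand) were added, after their values were seen, as further promoters with few CG dinucleotides.
Jag2: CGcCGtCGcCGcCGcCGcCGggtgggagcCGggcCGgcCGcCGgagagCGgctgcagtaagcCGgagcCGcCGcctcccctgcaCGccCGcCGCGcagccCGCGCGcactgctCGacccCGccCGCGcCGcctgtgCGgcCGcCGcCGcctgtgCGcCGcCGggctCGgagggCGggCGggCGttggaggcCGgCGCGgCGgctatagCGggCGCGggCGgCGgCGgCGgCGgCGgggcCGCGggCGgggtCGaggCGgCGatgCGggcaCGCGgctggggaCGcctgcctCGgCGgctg
Hoxa13: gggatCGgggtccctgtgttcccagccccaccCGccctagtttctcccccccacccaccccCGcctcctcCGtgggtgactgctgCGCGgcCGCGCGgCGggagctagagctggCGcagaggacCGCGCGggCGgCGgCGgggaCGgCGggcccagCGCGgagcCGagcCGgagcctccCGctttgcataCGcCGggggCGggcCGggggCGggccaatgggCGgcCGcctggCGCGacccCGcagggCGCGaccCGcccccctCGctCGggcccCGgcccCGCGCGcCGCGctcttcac
Lhx1: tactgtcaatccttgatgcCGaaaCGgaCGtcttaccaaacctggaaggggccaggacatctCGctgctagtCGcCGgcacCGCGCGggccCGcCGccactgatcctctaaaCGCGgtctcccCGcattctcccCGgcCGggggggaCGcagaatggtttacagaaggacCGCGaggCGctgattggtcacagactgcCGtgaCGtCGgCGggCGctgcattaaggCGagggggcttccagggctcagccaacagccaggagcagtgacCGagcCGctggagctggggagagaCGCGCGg
Twist1: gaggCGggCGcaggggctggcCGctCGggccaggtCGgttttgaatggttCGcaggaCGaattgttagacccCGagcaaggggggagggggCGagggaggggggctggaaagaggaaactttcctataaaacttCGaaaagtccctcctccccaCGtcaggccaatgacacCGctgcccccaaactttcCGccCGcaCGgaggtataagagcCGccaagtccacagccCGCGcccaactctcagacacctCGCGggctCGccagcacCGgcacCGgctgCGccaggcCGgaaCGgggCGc
Twist2: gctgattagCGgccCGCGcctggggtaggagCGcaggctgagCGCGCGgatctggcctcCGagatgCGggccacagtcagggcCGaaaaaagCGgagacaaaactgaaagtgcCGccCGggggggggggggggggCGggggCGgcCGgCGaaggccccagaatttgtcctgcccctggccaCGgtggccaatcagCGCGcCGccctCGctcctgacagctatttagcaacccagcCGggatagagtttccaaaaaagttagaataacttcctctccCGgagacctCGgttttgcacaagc
Wnt10b: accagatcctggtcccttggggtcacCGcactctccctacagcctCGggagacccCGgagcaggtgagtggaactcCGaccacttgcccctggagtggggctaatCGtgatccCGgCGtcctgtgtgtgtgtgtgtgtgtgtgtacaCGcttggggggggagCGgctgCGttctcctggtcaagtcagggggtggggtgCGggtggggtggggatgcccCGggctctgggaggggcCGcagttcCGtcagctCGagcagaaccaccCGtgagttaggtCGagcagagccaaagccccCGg
Col1a2: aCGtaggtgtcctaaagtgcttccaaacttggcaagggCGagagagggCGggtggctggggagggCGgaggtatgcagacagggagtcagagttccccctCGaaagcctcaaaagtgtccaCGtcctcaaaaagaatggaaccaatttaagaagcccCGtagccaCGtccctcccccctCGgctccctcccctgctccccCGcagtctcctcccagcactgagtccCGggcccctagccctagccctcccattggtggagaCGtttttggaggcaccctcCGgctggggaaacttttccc
Hoxd8: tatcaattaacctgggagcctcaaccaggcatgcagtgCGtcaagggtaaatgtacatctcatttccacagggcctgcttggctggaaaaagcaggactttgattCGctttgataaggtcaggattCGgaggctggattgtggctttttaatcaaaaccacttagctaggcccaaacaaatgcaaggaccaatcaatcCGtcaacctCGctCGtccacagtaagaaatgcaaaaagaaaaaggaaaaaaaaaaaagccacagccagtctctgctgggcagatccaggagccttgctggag
Notch4: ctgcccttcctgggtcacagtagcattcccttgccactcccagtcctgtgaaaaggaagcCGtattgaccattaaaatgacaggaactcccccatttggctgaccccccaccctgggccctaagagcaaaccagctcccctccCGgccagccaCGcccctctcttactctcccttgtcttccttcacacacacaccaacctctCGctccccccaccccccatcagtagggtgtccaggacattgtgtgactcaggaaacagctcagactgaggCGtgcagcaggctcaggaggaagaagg
Grm6: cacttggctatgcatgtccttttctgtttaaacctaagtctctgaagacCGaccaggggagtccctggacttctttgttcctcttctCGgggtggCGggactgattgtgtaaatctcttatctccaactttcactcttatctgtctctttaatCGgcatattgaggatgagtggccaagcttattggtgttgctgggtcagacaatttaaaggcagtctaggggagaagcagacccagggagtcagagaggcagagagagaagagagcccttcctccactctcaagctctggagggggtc

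These 10 stretches held from 63 CG dinucleotides in Jag2 and 45 in Hoxa13 down to 6 in Hoxd8, 5 in Notch4 and 4 in Grm6. Lhx1 had 31, Twist1 27, Twist2 25, Wnt10b 18 and Col1a2 13. Set against the number that the C and G content would give by chance placement (CpG observed/expected), Jag2 stood at 1.14, Hoxa13 at 0.918 and Lhx1 at 0.961, while Notch4 stood at 0.214 and Grm6 at 0.218. Hoxa13 and Hoxd8 belong to the same homeobox family and stood at 0.918 and 0.367, with GC contents of 81.0% and 46.7%. The cluster 9 regions that hold these promoters were 4713 bp wide at Lhx1, 2740 bp at Twist1, 2312 bp at Hoxa13, 2231 bp at Wnt10b, 1844 bp at Twist2, 1806 bp at Notch4, 1534 bp at Hoxd8, 1517 bp at Jag2, 1879 bp at Grm6 and 1216 bp at Col1a2.

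Many cluster 9 regions at gene ends were not at gene starts. Strand, taken from the RefSeq promoter table, was known for the host genes of 1049 of the 1334 regions. Of these, 641 (61.1%, interval 58.1 to 64.1) lay within 1 kb of a gene start and 408 (38.9%) lay only at the far end of a gene. Among gene-end regions of the other 8 clusters, 8550 of 9593 (89.1%, interval 88.5 to 89.7) lay at a start. Cluster 7 was the nearest to cluster 9 in this respect, with 57.2% at a start (interval 53.0 to 61.3), and clusters 2, 3 and 4 were farthest from it, with 98.8%, 97.9% and 98.1%. Over 18 autosomes with strand, the share at starts was 60.0% ± 10.7 (SD) for cluster 9 and 89.2% ± 2.10 for the other clusters, and it was lower for cluster 9 on each of the 18. Chromosome 18 is not analysed here for strand or sequence. With 1 region kept per 50 kb the share was 70.8%, and among regions that overlap a gene limit it was 87.1%.

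**Figure D1:**
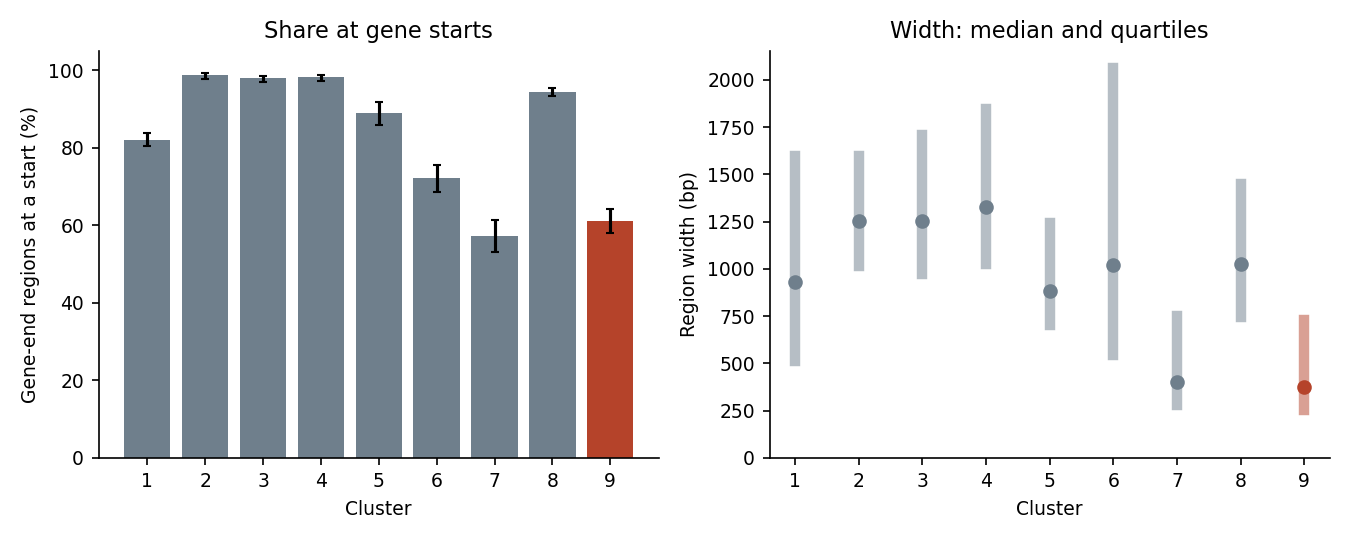
Left, share of gene-end regions with known strand that lie at a gene start (%), by cluster, with exact binomial 95% intervals; right, width of all gene-end regions (bp), with the median as a point and the quartiles as a bar. Cluster 9 stands at 61.1% and a median of 373.5 bp, next to cluster 7 at 57.2% and 400 bp.

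Where cluster 9 regions did lie at starts, they were placed much like those of other clusters. Their midpoints were within 200 bp of the start in 47.3% of 651 region-gene pairs, against 51.3% of 9423 pairs for the other clusters. The median midpoint was 103 bp downstream of the start, against 109.5 bp. The start base itself fell inside the region less often, in 420 of 651 pairs (64.5%) against 92.2%. Esrrb, an orphan nuclear receptor of naive pluripotency, had a cluster 9 region of 309 bp centred 52 bp downstream of its start. Krt18, a keratin of simple epithelia, had 1 of 408 bp centred 16.5 bp downstream. At Mest, an imprinted gene, a region of 412 bp was centred 452.5 bp upstream and did not reach the start.

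At the far end of genes no such peak was seen. The 457 region-gene pairs there were spread over the window, with 49.9% of midpoints beyond the end of the gene and the fewest, 20 pairs, in the 200 bp just before it. Examples were Tgfb1, a growth factor that restrains many cell types, with a region of 1253 bp centred 442 bp past its end, and Fzd10, a Wnt receptor, with a region of 263 bp centred 177 bp before its end. Sox12, a Sox factor of the nervous system, carried a region of 1000 bp centred 285.5 bp past its end, and a cluster 8 region also lay at a limit of the gene. By definition, a far-end region lies more than 1 kb from the annotated start of every protein-coding gene with known strand. Few could therefore lie near a listed start. Of the 408 far-end regions, 4 (0.980%) lay within 1 kb of any start in the promoter table, 3 of them starts of long non-coding RNA genes. For other clusters it was 29 of 1043 (2.78%). Starts of genes without a listed promoter could not be seen. The 408 regions belonged to 430 genes, of which 299 (69.5%) also had a gene-end region at the start, close to the 70.7% of hosts of far-end regions of other clusters. The starts of these 299 genes carried cluster 8 regions in 88 genes, cluster 1 in 49, cluster 3 in 40, cluster 4 in 36, cluster 2 in 27 and cluster 9 itself in 22. For far-end regions of other clusters, 792 host genes had a region at the start, with these clusters in the same order. Cluster 8 was there in 175, cluster 1 in 159, cluster 3 in 113, cluster 4 in 109, cluster 2 in 77 and cluster 9 in 57.

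**Figure D2:**
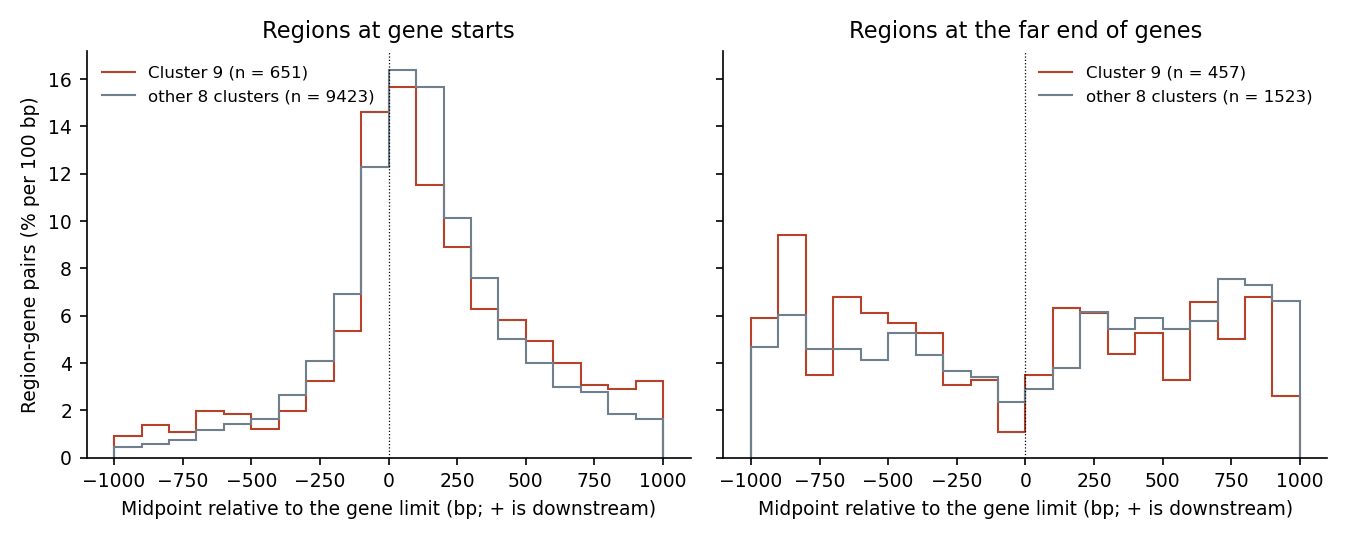
Position of region midpoints relative to the gene start (left) and the far end of the gene (right), in bp along the gene, as the percent of region-gene pairs per 100 bp, for cluster 9 and the other 8 clusters. Both curves peak at the start, where the median is 103 bp for cluster 9, and neither peaks at the far end.

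Cluster 9 regions at gene ends were narrow. They were 200 to 4713 bp wide, with a median of 373.5 bp and quartiles of 254 and 727 bp, and 147 were 200 bp, the least width in the table. The median for gene-end regions of the other clusters was 1089 bp, for cluster 7 it was 400 bp, and for cluster 9 away from gene ends 288 bp. On each of 19 autosomes the median was lower than that of the other clusters (370 ± 36.5 bp against 1097 ± 31.3 bp). Regions at starts were wider than those at far ends, with medians of 446 and 294.5 bp. Regions of 1000 bp or more made up 251 of the 1334, and those under 300 bp 476. The widest were at Lhx1 (4713 bp), Tbkbp1, an adaptor of the kinase TBK1 (4276 bp), Tmem200b (3857 bp), Adgrb2, an adhesion G protein-coupled receptor of the brain (3719 bp) and Ajap1 (3675 bp), all at starts. When only regions that overlap a gene limit were counted, 626 remained, with a median width of 628 bp.

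Promoters under cluster 9 regions were poorer in CpG than those under other clusters. Of 556 genes with a cluster 9 region at the start and a listed promoter there, 210 (37.8%, interval 33.7 to 41.9) had a low-CpG promoter (observed/expected under 0.48) and 164 (29.5%, interval 25.7 to 33.5) a high-CpG one (0.75 or more, with GC of 55% or more). For starts with regions of other clusters the shares were 13.4% low (interval 12.7 to 14.1) and 48.6% high, and over all 15752 promoters 43.3% low and 30.3% high. Genes without any gene-end region had a low-CpG promoter in 87.8% of 5814 cases. The median CpG observed/expected was 0.586 for cluster 9, 0.779 for the other clusters and 0.178 for genes without a region. Cluster 6 was nearest, at 0.622 with 31.1% low, and cluster 7 stood at 0.463 with 52.7% low. The low share was higher for cluster 9 than for the other clusters on each of 18 autosomes (38.7% ± 12.6 against 13.01% ± 2.71, SD). Counting only promoters that lie wholly inside a region, the low share was 22.3% of 188 for cluster 9 and 8.50% of 7447 for the others, and the high shares were 52.7% and 55.6%. The medians of observed/expected were then 0.803 and 0.809, so that the medians of these wider regions hardly differed.

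**Figure D3:**
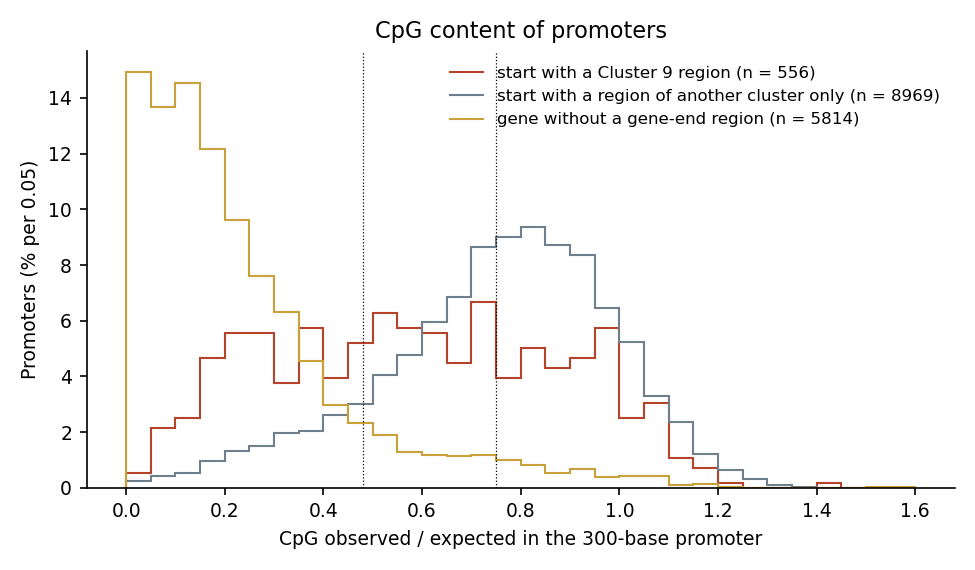
CpG observed/expected of 300-base promoters, as the percent of promoters per bin, for 556 starts with a cluster 9 region, starts with a region of another cluster only, and genes without a gene-end region, with dotted lines at 0.48 and 0.75. Cluster 9 spreads over the whole range with a median of 0.586, between the peak of other clusters and that of genes without a region.

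Among themselves, the cluster 9 regions differed with width. Of those under 300 bp, 44.7% (172 of 385) lay at a start, and of those of 300 to under 500 bp 55.4% (174 of 314). The share was 86.2% (131 of 152) at 500 to under 1000 bp and 82.8% (164 of 198) at 1000 bp or more. In the same order of widths, low-CpG promoters made up 53.3%, 72 of 150, 28.1% and 21.9%, and high-CpG ones 11.1%, 17.3%, 35.5% and 53.0%. Regions of other clusters also differed with width. Below 500 bp, 51.0% and 59.3% of them lay at a start, with intervals that overlap those of cluster 9, and low-CpG promoters made up 68.1% (interval 58.8 to 76.4, against 44.6 to 62.0) and 42.7%. At 500 to under 1000 bp, 89.8% of other regions lay at a start, inside the interval of cluster 9 (79.7 to 91.2), while 16.6% of their promoters were low (interval 15.3 to 18.1, against 20.3 to 37.0). At 1000 bp or more 95.02% of other regions lay at a start (interval 94.4 to 95.6, against 76.8 to 87.8 for cluster 9), and 8.24% of their promoters were low (interval 7.53 to 8.995, against 15.5 to 29.3). Cluster 7, one of these other clusters, supplied 77 of their 116 promoters under 300 bp, and 75.3% of the 77 were low. At 500 to under 1000 bp, 67.7% of cluster 7 regions lay at a start and 45.5% of their promoters were low. At 1000 bp or more, cluster 7 had 73.5% at a start and 29.2% low, so these departures were not particular to cluster 9. How far width accounts for the overall differences was not tested.

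**Figure D4:**
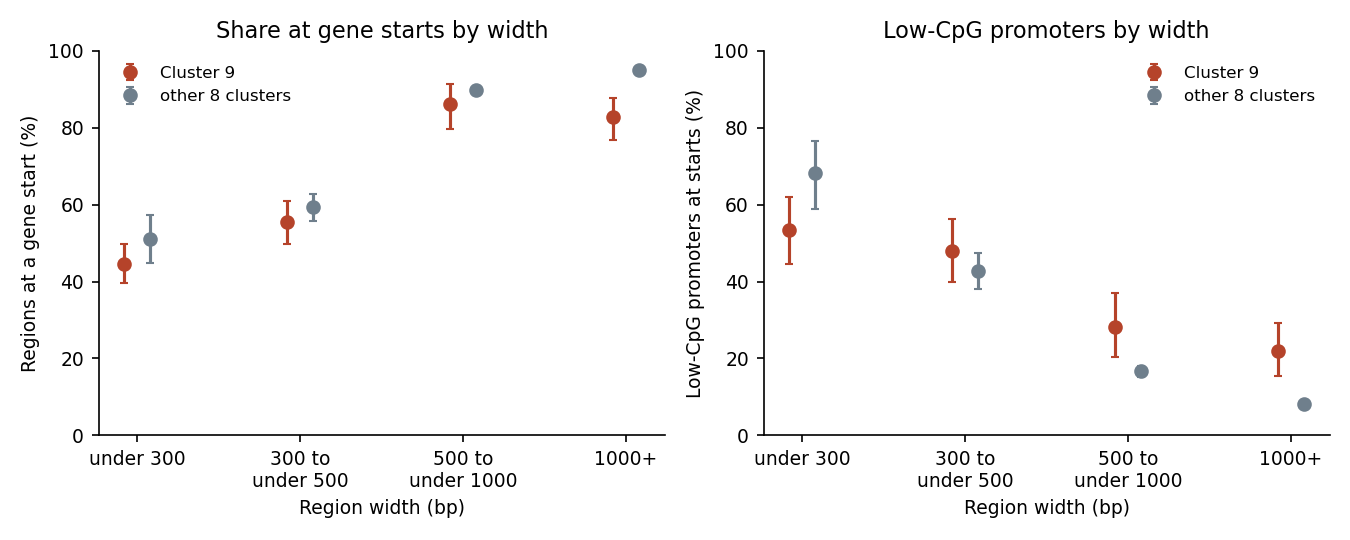
Share of regions at a gene start (left, %) and share of low-CpG promoters among those starts (right, %), by region width in bp, for cluster 9 and the other 8 clusters, with exact binomial 95% intervals. From under 300 bp to 1000 bp or more, cluster 9 moves from 44.7% to 82.8% at starts and from 53.3% to 21.9% low-CpG promoters.

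Short motifs in the 188 promoters wholly inside a cluster 9 region were set beside those of 7447 promoters inside gene-end regions of other clusters and of all 15752 promoters, counting both strands. The GC box (GGGCGG), bound by Sp1-type factors, was in 73.4% of the first, 73.4% of the second and 46.7% of all. The CCAAT box (CCAAT), bound by NF-Y, was in 27.1% (interval 20.9 to 34.1), 41.9% (40.7 to 43.0) and 39.4%. The ETS site (CCGGAAGT) was in 2.13% (0.583 to 5.36), 9.18% (8.54 to 9.86) and 5.37%, and the cyclic AMP response element (TGACGTCA) in 0.532%, 3.76% and 2.38%. Within high-CpG promoters alone, the CCAAT box was in 12 of 99 for cluster 9 (12.1%) and in 37.3% of 4141 for other clusters, and the ETS site in 3 of 99 (3.03%) and 10.3%. Within low-CpG promoters the CCAAT box was in 22 of 42 for cluster 9 (52.4%) and in 317 of 633 for other clusters (50.1%), and the ETS site in 0 of 42, too few promoters to set against 19 of 633. The TATA box letters TATAAA were in 7.45%, 5.49% and 13.7%, the E-box (CACGTG) in 8.51%, 11.1% and 8.01%, and the AP-1 site (TGANTCA) in 4.79%, 3.63% and 6.996%. The octamer (ATGCAAAT), the site of OCT4 and its relatives, was in 0 of 188, and in 1.61% and 1.75%. The exact interval of 0 of 188 reaches 1.94% and holds both of these shares, while the limit of 3 counts, 1.596%, lies just below both. Whether the shares differ could therefore not be decided with this number of promoters. A GC box can overlap other GC-rich letters, and a match is no proof of binding.

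The genes with cluster 9 regions at their ends were described by 39 lists. Of the 13321 protein-coding genes with a gene-end region of any cluster, 1382 (10.4%) had one of cluster 9, and 27 lists lay above this share and 12 below it. Many lists are small, lists share genes, and no list was tested. Named genes are those with the widest cluster 9 region in their list.

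Among transcription factors that pattern the embryo, 9 of 30 Hox genes with a gene-end region had one of cluster 9 (30.0%, interval 14.7 to 49.4). The widest were those of Hoxa13 (2312 bp), Hoxc11 (1842 bp) and Hoxd8 (1534 bp). Lineage factors of the basic helix-loop-helix class had it in 7 of 26 genes (26.9%), with 2740 bp at Twist1, 2429 bp at Myod1, the muscle determination factor, and 1844 bp at Twist2. The list of Pax, Lhx and sine oculis-type homeobox genes had it in 4 of 15, with Lhx1, Lhx2 (a forebrain and eye factor, 1774 bp) and Pax9 (a factor of teeth and thymus, 1242 bp), and in all 4 the region was at the start. Sox genes had it in 3 of 16 (Sox3, a neural factor on the X chromosome, 2084 bp; Sox7, an endoderm and vessel factor, 1693 bp; Sox12, 1000 bp). Fox genes had it in 2 of 37, namely Foxe1, a thyroid factor, and Foxi1, a factor of inner ear and kidney, and Tbx and Gata genes in 0 of 9. The 309 zinc finger genes named Zfp, a family with many repressors of transposons, had it in 19 cases (6.15%, interval 3.74 to 9.44), with Zfp236 and Zfp362 the widest.

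Pluripotency genes were listed by state. Of 21 naive pluripotency genes with a gene-end region, 1 had a cluster 9 region, namely Esrrb (4.76%, interval 0.120 to 23.8). Of 17 formative and primed genes, 4 had one (23.5%, interval 6.81 to 49.9), among them Sox3, Fgf8, a growth factor of gastrulation (1540 bp), and Cdh2, the N-cadherin gene (224 bp). Strand was not known for any of these 4 genes, so whether their regions lay at a start is unknown, while that of Esrrb was at the start. A gene-end region of another cluster also lay at Esrrb (cluster 7), Fgf8 (cluster 1) and Cdh2 (cluster 8). The difference between the naive list and the formative and primed list was not tested. A gene-end region of some cluster lay at 21 of 31 naive genes, beside 13321 of all 21887 protein-coding genes. Such a region lay at 9 of 17 primitive endoderm genes, 8 of 15 trophoblast genes and 18 of 30 fibroblast markers. These counts show nothing about the cells' identity, since positions and cluster names hold no expression or signal.

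Among ligands, those of the Wnt family had a cluster 9 region in 4 of 12 genes (33.3%, interval 9.92 to 65.1), and each of the 4 was at a start: Wnt10b, Wnt4, a ligand of kidney and ovary (1460 bp), Wnt5b (1432 bp) and Wnt3, a ligand of the primitive streak, named after its value was seen. Chemokines and interleukins had it in 9 of 22 (40.9%, interval 20.7 to 63.6), with Ccl27a, a skin chemokine (829 bp), Il15, a cytokine of lymphocytes (528 bp), and Il10, an anti-inflammatory cytokine (505 bp). Of the 74 genes in that list, 22 had a gene-end region at all. Fgf ligands had it in 2 of 15 (Fgf16 and Fgf8), ligands of the Tgf-beta superfamily in 2 of 18 (Tgfb1 and Bmp7), and semaphorins, ephrins, netrins and Slits in 2 of 25 (Ntn4 and Sema6b).

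In receptor lists the shares ran from 0 of 16 to 4 of 16, and the interval of each of the 6 lists includes the 10.4% of all genes. Cluster 9 regions were found at 1 of 11 genes of the Frizzled list (Fzd10), 0 of 16 receptors of the Fgf, Bmp, activin and Tgf-beta families, 2 of 16 genes of the Notch pathway (Notch4 and Jag2) and 3 of 23 guidance receptors (Plxna4, a semaphorin receptor, with 2171 bp, Unc5a and Epha8). The integrin list had 2 of 19, of which Itga11 is a collagen receptor and Itgb1bp2 encodes a protein that binds integrins. Of 1107 olfactory receptor genes 16 had a gene-end region, and 4 of these were of cluster 9. Reads are hard to place on copies as alike as olfactory receptor and protocadherin genes, so their names are uncertain.

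Among genes of the extracellular matrix, collagens had cluster 9 regions in 8 of 23 genes (34.8%, interval 16.4 to 57.3), above the 10.4% of all genes. The widest were at the starts of Col1a2 (1216 bp), Col6a2, a chain of type VI collagen (579 bp), and Col4a5, a basement membrane collagen of the X chromosome (506 bp). Laminins and other glycoproteins had them in 3 of 14 (Lama3, Nid1 and Lamc3) and matrix proteases in 6 of 36, among them Adamts10, Mmp2 and Mmp24, and the intervals of both lists include 10.4%. Among regions that overlap a gene limit, matrix proteases had 1 of 28 against 5.33% of all genes. Markers of fibroblasts, the cell type of the feeder layer, had them in 8 of 18 (44.4%, interval 21.5 to 69.2), 7 of them at a start with known strand, with Twist1, Twist2 and Pdgfra, the receptor of platelet-derived growth factor (1401 bp). Several of these genes are also in other lists. The part of remaining feeder cells in these regions was not tested.

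Among epithelial, adhesion and excitable-cell genes, keratins had cluster 9 regions in 7 of 12 genes (58.3%, interval 27.7 to 84.8), including Krt42 (1386 bp), Krt80 (814 bp) and Krt18, and 12 of 53 keratin genes had a gene-end region at all. Protocadherins had them in 8 of 36, with Pcdhga9, Pcdhga6 and Pcdhgb5 of the clustered gamma group between 502 and 542 bp. Cadherins had them in 2 of 13 (Cdh15, the muscle cadherin, and Cdh2) and claudins in 1 of 10 (Cldn9). Sodium and calcium channel subunits had them in 6 of 26, with Cacng4 at 1635 bp, receptors for glutamate, GABA and glycine in 6 of 33, with Grik5 at 2315 bp, and potassium channel genes in 3 of 56 (5.36%), among them Kcnn4 and Kcnd3. With a window of 2.5 kb the potassium channel genes had 18 of 72 against 17.8% of all genes. The 245 solute carriers, the large family of membrane transporters, had them in 40 cases (16.3%, interval 11.9 to 21.6), of which 21 were at a start and 12 at a far end. The widest were at Slc10a4 (1881 bp) and Slc45a3 (1774 bp).

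Housekeeping genes were mostly at the low end. Among ribosomal proteins, 2 of 76 genes carried a cluster 9 region (2.63%, interval 0.320 to 9.18), at the far end of Rpl5 and at the start of Rpl39l, a paralogue used in the testis. Oxidative phosphorylation genes had 1 of 84 (1.19%, interval 0.0301 to 6.46), Ndufaf6, an assembly factor. Proteasome subunits had 2 of 38, Psma6 and Psmb11, the subunit of the thymus. Mitochondrial ribosomal proteins stood at the share of all genes, with 8 of 76 (10.5%), among them Mrps23, Mrpl33 and Mrpl4. With a window of 500 bp they had 2 of 64 against 8.13% of all genes, and with overlap of a gene limit 2 of 69 against 5.33%. Imprinted genes had 3 of 23, and all 3 were at starts: Dio3, which inactivates thyroid hormone (1353 bp), Grb10, a growth inhibitor (1175 bp), and Mest. Among primitive endoderm genes 3 of 9 had one (Sox7, Pdgfra and Ttr), and among trophoblast genes 2 of 8 (Hand1 and Krt18).

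**Figure D5:**
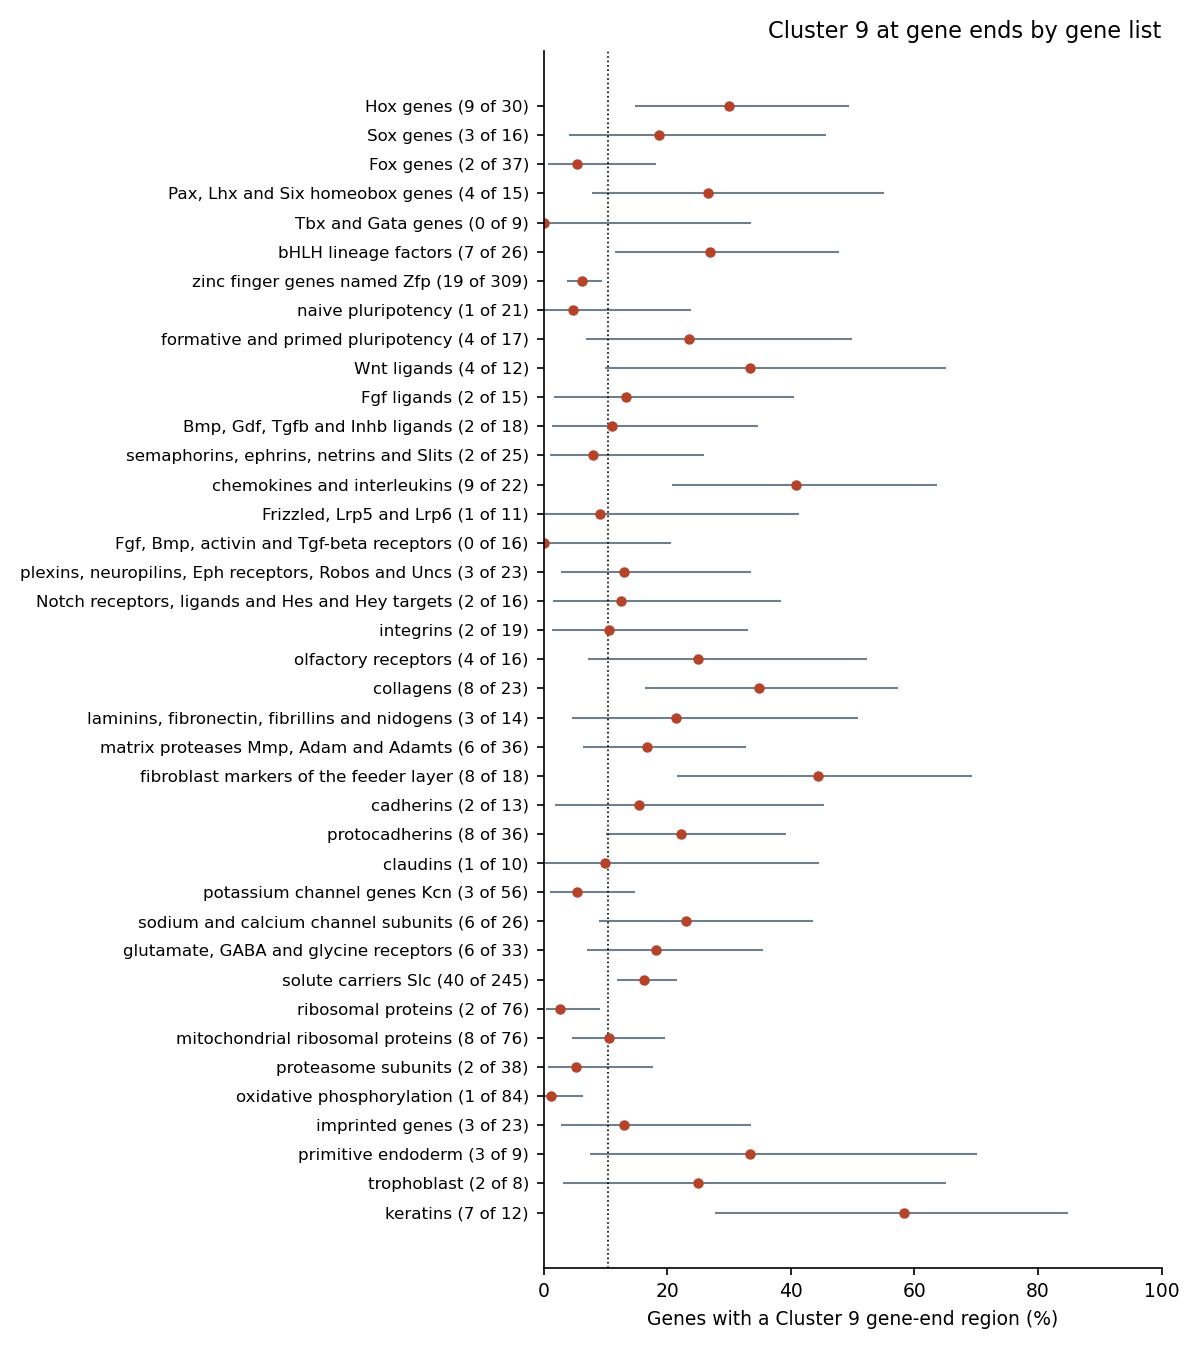
Share of genes with a cluster 9 gene-end region among genes with any gene-end region (%), for 39 gene lists, with exact binomial 95% intervals and a dotted line at the 10.4% of all such genes. Keratins (7 of 12), fibroblast markers (8 of 18) and chemokines (9 of 22) lie highest, and oxidative phosphorylation (1 of 84) and ribosomal proteins (2 of 76) lowest apart from 2 lists at 0.

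At most genes the cluster 9 region was the only gene-end region. Of the 1382 host genes, 441 (31.9%) also had a gene-end region of another cluster, most often cluster 8 (124 genes) or cluster 1 (98 genes). Clusters 8 and 1 are also those with the most gene-end regions, 21.9% and 20.6% of all. A matching share for host genes of other clusters is not given here. The share of 31.9% became 61.0% with a window of 2.5 kb and 11.9% when regions had to overlap the limit. A second region of another cluster at the same start was seen in 2 of 650 genes. Different cluster 9 regions lay at both limits of 31 genes. Among the longest of these genes were Pde10a, a phosphodiesterase of the striatum, with regions of 425 and 200 bp, Bicc1, an RNA-binding protein (987 and 200 bp), Atxn2, the ataxin-2 gene (2524 bp at the start and 298 bp at the far end), Agpat3 (685 and 365 bp) and Adgrb1 (718 and 1865 bp). The region nearest to a cluster 9 region at a gene end, at a median of 6593 bp, was itself of cluster 9 in 31.7% of cases and of cluster 1 in 23.2%. For cluster 9 regions away from gene ends, the nearest region was of cluster 9 in 30.1% and of cluster 1 in 19.5%. For gene-end regions of other clusters, it was of cluster 9 in 25.9% and of cluster 1 in 20.8%.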

How the data were processed

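ACC-seq was run on 6 libraries in 3 groups of 2, as labelled Fresh, Fix and Fix, 1,6-Hex. Per the submitters' processing notes, cutadapt 1.18, Bowtie2 2.3.3.1, Picard and SAMtools 1.6 were used on mm10. How regions were called and clustered: not given in the sources used here. Each line of the deposited table holds positions from 0, counted here from 1, and a cluster name, with no signal, so depth and precision per library are unknown and no test between groups was run. Regions were placed by midpoint against 21887 protein-coding genes of the RefSeq GRCm38.p6 gene table. Strand came from the RefSeq promoter table, which matched 17492 of these genes, and 15752 had a promoter within 1 kb of the start limit. A region near a start and a far end counted as at a start. The members, the 39 gene lists and the rules were chosen with earlier results of these data known. Genes were named as the 3 with the widest cluster 9 gene-end region in each list, the 5 widest and 3 narrowest regions (the latter tied at 200 bp and not named), the 6 longest genes with regions at both limits, and the regions nearest to 1 kb. Rules for genes with 3 or more regions, or regions shared by 3 or more genes, found 0. Others are named as chosen later. Some genes that the rules select are not reported here. Placement was tested on simulated data. Other settings are in the closing section. Intervals used SciPy 1.17.1, tables pandas 2.3.3 with numpy 2.4.6, and plots matplotlib 3.10.9, under Python 3.11.15.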

Additional observations from a re-analysis of the deposited data

How the results depend on the processing

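The number of cluster 9 regions at gene ends followed the definition of a gene end. It was 859 with a window of 500 bp, 2583 with 2.5 kb, 626 with any overlap of a gene limit, 2346 with all annotated genes and 439 with 1 region per 50 kb. In the same order of settings, without the all-gene one, the share at starts was 72.0%, 54.4%, 87.1% and 70.8%, and that of the other clusters was higher each time (93.5%, 81.4%, 96.2% and 92.7%). The median width was 325 bp with 2.5 kb, 628 bp with overlap and 331 bp with all genes. The share of low-CpG promoters was 31.6% with overlap, 53.5% with all genes and 22.3% for promoters wholly inside a region, against 11.4%, 18.9% and 8.50% for other clusters. With the high class from 0.6, 42.6% were high for cluster 9 and 65.8% for the others. The share of genes with a cluster 9 region was 8.13% with 500 bp, 17.8% with 2.5 kb, 5.33% with overlap, 13.4% with all genes and 8.21% when the nearest region alone counted. The share of host genes with a region of another cluster was 16.6%, 61.0%, 11.9% and 22.9% in the first 4 of these, and 2.63% with 1 region per 50 kb, which removes neighbours by construction. The causes of the other shifts were not tested. Autosomes alone left all 6 values inside their intervals or, for the count, within 1.5 times. Of 98 genes named by the rules, 32 had no cluster 9 region with 500 bp, 31 with overlap and 58 with 1 region per 50 kb. Of the 39 lists, the share left its interval in 3 with 500 bp, 4 with 2.5 kb, 7 with overlap, 12 of 38 with 1 region per 50 kb, 1 with the nearest region alone and 0 with all genes or autosomes. No paired analysis was possible because the table has no value per library, and for the same reason no library could be left out.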

Other observations

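Cluster 9 regions were seldom shared by neighbouring genes. Of the 1334, 83 (6.22%, interval 4.99 to 7.65) lay at the limits of 2 genes, against 1614 of 11871 gene-end regions of other clusters at the limits of 2 or more (13.6%, interval 12.98 to 14.2). Where strand was known for both of the 2 genes, the cluster 9 regions joined 2 starts in 10 of 52 cases (19.2%), a start and a far end in 18, and 2 far ends in 24 (46.2%). For other clusters, 831 of 1187 (70.0%) joined 2 starts and 80 (6.74%) joined 2 far ends.

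On the X chromosome 302 regions belonged to cluster 9 and 52 of them (17.2%) lay at gene ends, against 7.05% ± 1.55 on autosomes (SD, n = 19 autosomes, range 5.07% to 11.2%). Regions of other clusters also lay at gene ends more often on X, at 31.0% against 22.8% ± 2.35. Of the 40 X-linked cluster 9 regions with strand, 37 were at a start (92.5%), above the autosomal range of 37.0% to 78.7%, and other clusters on X also stood above their autosomal range, with 95.5% against 85.8% to 92.9%. Their low-CpG share was 21.2% of 33 promoters, and that of other clusters on X 20.7% of 285. Among autosomes, cluster 9 made up from 6.47% of gene-end regions on chromosome 8 to 13.3% on chromosome 15. The host genes had a median length of 20112 bp, and genes with gene-end regions of other clusters only 22587 bp.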
